A study of Mus musculus with 474 samples.

Results

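The 10 genes described here encode proteins that megakaryocytes and platelets use to stick, to signal and to store cargo: Vwf, Itga2b, Pf4, Gp1bb, Gp9, Gp5, Ppbp, Selp, Itgb3 and Treml1. They were taken by symbol, 10 of the 55450 genes in the deposited tables and of the 27884 with a count in at least 1 cell. They were followed in single daughters of mouse haematopoietic stem cells (HSCs), the bone marrow cells that renew blood. The donors were wild-type male C57BL/6JRj mice of 12 to 19 weeks. HSCs were filmed until their first division in culture, and each daughter was then picked by micromanipulator and profiled with Smart-seq2, a plate method that sequences polyadenylated RNA of 1 cell per well along the whole transcript. Both groups come from the same mice, treatment and culture. They differ in one label, whether the daughter was recorded as having more lysosomes than its sister (high, 51.1% of cells) or fewer (low, 48.9%). For 85.7% of cells, all but 68, the other sister was sequenced too and carried the opposite label. The 9 culture experiments gave 32, 61, 72, 77 and 55 cells in sequencing run 4 (experiments 69, 74, 75, 76 and 77) and 48, 49, 28 and 52 cells in run 5 (experiments 60, 68, 72 and 73). In the same order, complete sister pairs numbered 12, 27, 33, 38 and 26 in run 4 and 20, 17, 11 and 19 in run 5, and are called divisions here. The labels do not tie experiments to single animals, so p-values over experiments measure the spread between cultures.

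Platelets are shed by megakaryocytes, large cells that arise from HSCs. Von Willebrand factor (Vwf) is a long secreted protein that anchors platelets to damaged vessels. Its platelet receptor is the GPIb-IX-V complex, to which Gp1bb, Gp9 and Gp5 contribute subunits together with Gp1ba. Itga2b and Itgb3 encode the 2 chains of the fibrinogen receptor, the integrin also called CD41/CD61, and Itgb3 pairs with other alpha chains as well. Pf4 and Ppbp encode chemokines stored in alpha granules, Selp encodes P-selectin, an adhesion receptor of granule membranes, and Treml1 encodes TLT-1, another granule receptor. Part of the HSC pool is known to carry Vwf and Itga2b transcripts, and HSCs with Vwf have been tied to platelet output.

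All 10 genes had 1 identifier each, on GRCm38 positions of GENCODE mouse release 21. For the receptor for von Willebrand factor, Gp9 (ENSMUSG00000030054) lies on chromosome 6 from 87778072 to 87779768 and Gp5 (ENSMUSG00000047953) on chromosome 16 from 30307685 to 30310779. Vwf (ENSMUSG00000001930) itself lies on chromosome 6 from 125546774 to 125686679. The integrin genes Itga2b (ENSMUSG00000034664, 102453297 to 102470122) and Itgb3 (ENSMUSG00000020689, 104608000 to 104670476) share chromosome 11. The chemokine genes are neighbours on chromosome 5, Ppbp (ENSMUSG00000029372) from 90768518 to 90770063 and Pf4 (ENSMUSG00000029373) from 90772435 to 90773383. Selp (ENSMUSG00000026580) lies on chromosome 1 from 164115264 to 164150026, and 14.14% of its exon length overlaps antisense genes. Treml1 (ENSMUSG00000023993) lies on chromosome 17 from 48359916 to 48367176. Gp1bb (ENSMUSG00000050761, chromosome 16, 18620317 to 18622403) shares 92.86% of its exon length with Sept5 and Gm49601 on the same strand. Reads there cannot be assigned to 1 gene, so the Gp1bb counts are not read as its level.

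Upstream sequences are shown for the genes described together in the co-expression results below, the receptor genes Itga2b, Gp9 and Gp5 and the chemokine pair Pf4 and Ppbp. They are the 250 bases before the RefSeq start (GRCm38.p6), written 5′ to 3′ on the strand of the gene. The regions are chr11:102469884-102470133 (minus strand) for Itga2b, chr6:87777820-87778069 (plus) for Gp9, chr16:30310782-30311031 (minus) for Gp5, chr5:90772185-90772434 (plus) for Pf4 and chr5:90768268-90768517 (plus) for Ppbp. For Itga2b the GENCODE start lies farther upstream than that of RefSeq, so all but 11 bases of the region, with both its matches, lie inside the GENCODE gene. Capitals mark matches, on either strand, to AGATAA, the core that GATA factors bind, to AGGAAG, an ETS core, and to TGTGGT, a RUNX core. On the other strand these read TTATCT for the GATA core, CTTCCT for the ETS core and ACCACA for the RUNX core.
Itga2b: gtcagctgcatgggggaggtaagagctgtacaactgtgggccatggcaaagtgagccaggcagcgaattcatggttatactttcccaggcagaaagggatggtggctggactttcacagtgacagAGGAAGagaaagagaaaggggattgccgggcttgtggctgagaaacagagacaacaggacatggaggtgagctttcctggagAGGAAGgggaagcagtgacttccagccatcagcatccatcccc
Gp9: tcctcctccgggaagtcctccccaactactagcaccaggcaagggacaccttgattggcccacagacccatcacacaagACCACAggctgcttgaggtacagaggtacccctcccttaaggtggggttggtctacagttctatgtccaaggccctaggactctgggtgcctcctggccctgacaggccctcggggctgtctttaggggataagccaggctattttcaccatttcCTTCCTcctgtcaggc
Gp5: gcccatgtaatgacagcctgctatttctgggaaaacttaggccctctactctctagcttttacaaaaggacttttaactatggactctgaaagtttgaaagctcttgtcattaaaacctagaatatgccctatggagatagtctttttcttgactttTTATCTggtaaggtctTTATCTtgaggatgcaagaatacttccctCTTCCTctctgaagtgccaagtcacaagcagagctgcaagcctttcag
Pf4: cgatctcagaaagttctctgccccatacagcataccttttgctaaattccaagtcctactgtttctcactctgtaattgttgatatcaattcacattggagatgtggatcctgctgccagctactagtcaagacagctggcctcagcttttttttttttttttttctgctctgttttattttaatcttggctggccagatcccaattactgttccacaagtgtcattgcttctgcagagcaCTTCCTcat
Ppbp: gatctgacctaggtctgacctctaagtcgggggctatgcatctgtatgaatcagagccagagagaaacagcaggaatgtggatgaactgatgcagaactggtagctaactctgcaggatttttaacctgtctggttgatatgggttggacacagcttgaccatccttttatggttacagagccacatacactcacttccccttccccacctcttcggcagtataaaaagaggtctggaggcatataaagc

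Of the 10 members, 8 have an entry among the RefSeq upstream sequences. Gp5 held 2 AGATAA matches, 93 and 77 bases before the start, and 1 AGGAAG match. Itga2b held 2 AGGAAG matches, and Pf4, Gp9 and Selp held 1 each. Gp9 also held the only TGTGGT match, and Gp1bb, Ppbp and Treml1 held none of the 3 motifs. Over 32536 mouse upstream sequences of the same length, 9.97% held AGATAA, 29.6% AGGAAG and 13.96% TGTGGT, so single matches are common. The matches describe letters and not sites of binding.

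Each cell had between 76735 and 2444858 counts on genes (median 846198), with medians of 792443 in run 4 and 1063396 in run 5. Of 8 HSC marker genes, 7 had a count in at least 20% of cells, with Mecom in 100%, Hlf in 99.8% and Procr in 85.4% of cells, and Hoxb5 was listed at 0. Erythroid, myeloid, mast cell, macrophage and lymphoid lists had median detection of 9.28%, 1.27%, 0.844%, 3.90% and 1.16% of cells, and Alas2, Mpo, Ctsg, Prss34, Fcer1a, C1qa, Rag1 and Cd3e were listed at 0. Other genes of these lists were common, namely Tfrc in 94.1% and Hbb-bt in 63.1% of cells (erythroid), Prtn3 in 74.1% and Csf3r in 50.2% (myeloid), Cpa3 in 43.2% (mast cell) and Cd68 in 58.4% and Csf1r in 23.6% (macrophage). Of 10 endothelial genes, Tie1, Pecam1 and Tek, which HSCs also express, had a count in 99.8%, 93.7% and 86.5% of cells, Emcn in 66.2%, Robo4 in 62.9% and Kdr in 20.5%. The other 4, Plvap, Cdh5, Stab2 and Cldn5, had one in 5.06%, 2.32%, 1.05% and 0.211% of cells. Experiment 69, with 12 divisions spread over 3 plates, stood apart in some values below, which are given with and without it.

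Platelet genes were common in these daughters, but in very unequal degree. Itgb3 had at least 1 count in 98.1% of cells (95% Wilson interval 96.4% to 98.998%). Pf4 followed with 69.6% (65.3% to 73.6%), Vwf with 67.3% (62.95% to 71.4%), Itga2b with 60.1% (55.7% to 64.4%), Gp9 with 52.3% (47.8% to 56.8%) and Selp with 41.1% (36.8% to 45.6%). These intervals cover counting error only. The intervals of Pf4 and Vwf overlap, those of Itga2b and Gp9 overlap narrowly, and those of Itgb3 and Pf4 and of Gp9 and Selp do not.

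The other members were seen in few cells. Gp5 had a count in 68 cells (14.3%, 11.5% to 17.8%) and Ppbp in 64 (13.5%, 10.7% to 16.9%). Treml1 was seen in 15 cells (3.16%) of 7 experiments. The row of Gp1bb had a count in 6 cells (1.27%), 4 of them with a single count, while Gp1ba, the gene of the chain that binds von Willebrand factor, had one in 36.3% of cells.

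Every member but Treml1 and Gp1bb was detected in all 9 experiments. The share of cells with Vwf ran from 51.4% over a median of 71.9% to 81.6%, that with Pf4 from 39.6% over 72.2% to 89.3%, and that with Itga2b from 48.1% over 59.2% to 78.1%. Gp9 ran from 39.3% over 53.2% to 71.9%, Selp from 27.1% over 39.3% to 61.2%, and Gp5 from 6.49% over 12.2% to 34.4%. Experiment 60 was lowest for Pf4 and Selp, and experiment 69 was highest for Itga2b, Gp9 and Gp5. Vwf was found in 60.3% of run 4 cells and 79.1% of run 5 cells, and Pf4 in 72.4% and 64.97%.

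Thinning cells to 200000 counts, which left out 13 shallower ones, kept the order of the 6 most often detected genes with one exchange. Itgb3 then had a count in 97.6% of cells, Vwf in 63.1%, Pf4 in 57.3%, Itga2b in 51.6%, Gp9 in 47.5% and Selp in 36.2%, against 98.05%, 67.7%, 69.4%, 60.7%, 53.1% and 41.6% in the same cells before thinning. Pf4 and Vwf changed places. At equal depth Vwf was still found in fewer cells of run 4 (58.97%) than of run 5 (70.2%), and Pf4 in more (62.1% against 49.1%). Run and experiment cannot be told apart here, since each experiment was sequenced in 1 run.

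**Figure D1:**
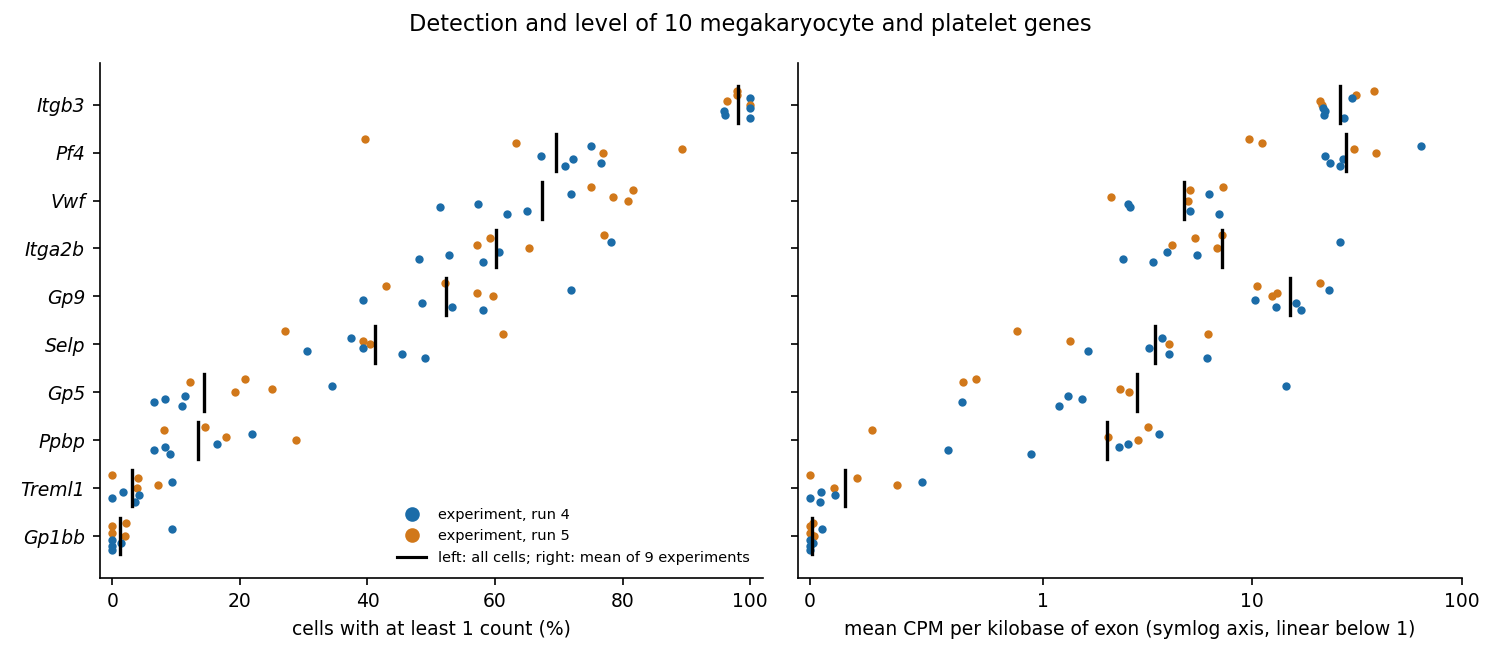
Left, share of cells with at least 1 count for each gene, with a point for each of 9 experiments and a bar for all cells; right, mean level in CPM per kilobase of exon, with a bar for the mean of the experiments, on an axis that is linear below 1 and logarithmic above. Itgb3 sits at 98.1% of cells, Selp at 41.1% and Gp1bb at 1.27%, and experiment 69 is the far point of Itga2b and Gp5 on the right.

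Levels per length of annotated exon gave another order. In CPM (counts per 1000000 counts of the cell) per kilobase of exon, Pf4 stood at 28.2 ± 16.2 and Itgb3 at 26.1 ± 5.95 (mean of experiment means ± SD, n = 9 here and below). Gp9 stood at 15.2 ± 4.56, Itga2b at 7.19 ± 7.27, Vwf at 4.75 ± 1.93, Selp at 3.45 ± 1.91, Gp5 at 2.82 ± 4.41, Ppbp at 2.04 ± 1.18 and Treml1 at 0.151 ± 0.171. Vwf, detected in more cells than Gp9, was thus lower per kilobase, since its annotated exons span 16.064 kb against 0.881 kb. That length joins the exons of all annotated transcripts of a gene. It can exceed the length of 1 transcript, and the level per kilobase is then too low. Between neighbours in this order, Itgb3 over Gp9, Gp9 over Itga2b and Ppbp over Treml1 differed by more than the larger SD, and the others did not. Without experiment 69, Itgb3 at 25.6 ± 6.17 stood above Pf4 at 23.7 ± 9.72, Gp5 fell to 1.37 ± 0.744, under Ppbp at 1.84 ± 1.09, and Itga2b to 4.82 ± 1.66 CPM per kilobase (n = 8).

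The level also varied from cell to cell. Vwf had a median of 16.8 CPM, a 90th percentile of 248.4 CPM and a maximum of 955.3 CPM. Itga2b had a median of 5.75 CPM and a maximum of 1274 CPM, and Pf4 a median of 6.74 CPM and a maximum of 885.6 CPM. The 47 cells with the most Vwf held 55.4% of its summed CPM, and the corresponding shares were 63.9% for Itga2b, 56.001% for Pf4, 63.1% for Selp and 50.6% for Gp9. For Itgb3, whose median was 127.6 CPM, that share was 26.4%. The counts of Itgb3 were thus spread over more cells than those of the other genes.

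**Figure D2:**
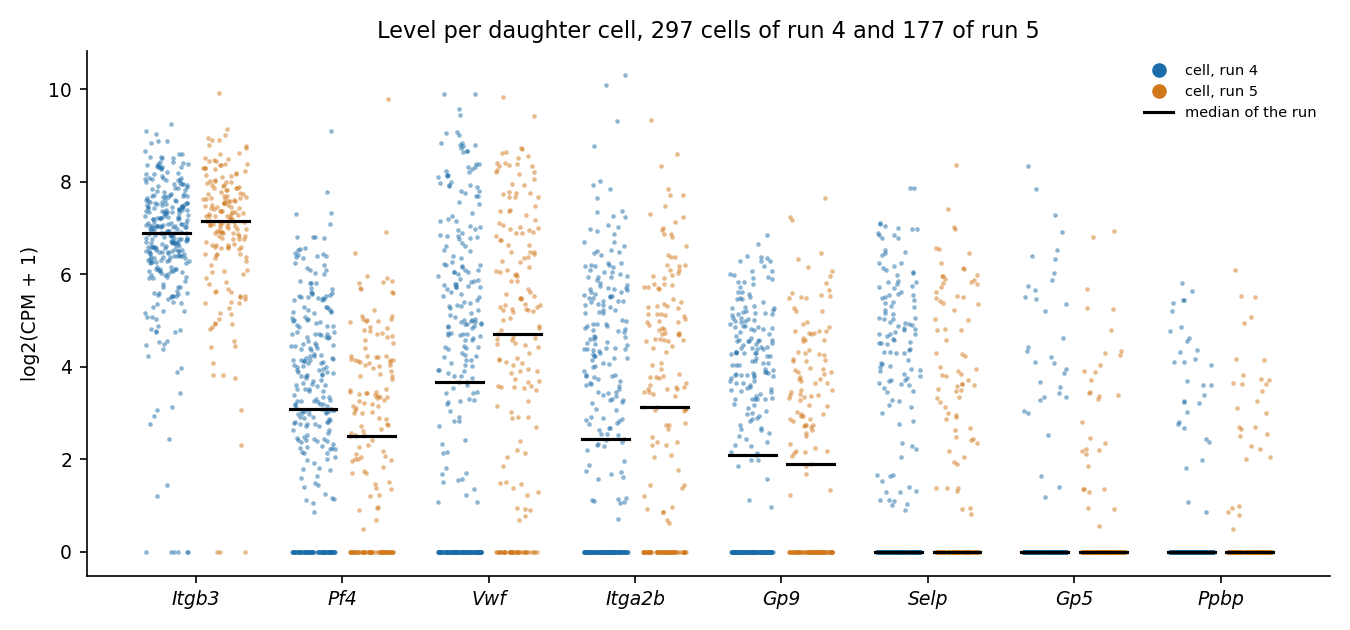
Level of 8 genes in each daughter on the log2(CPM + 1) scale, cells of run 4 beside those of run 5, with bars at the medians; points at 0 are cells without a count. Itgb3 forms 1 band, while Vwf, Itga2b, Pf4, Gp9 and Selp stretch from 0 upward and Gp5 and Ppbp are mostly at 0.

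A cell carried several of these genes at once. The median cell had counts for 4 of the 10 members, 80.8% of cells had 3 to 6, 62 cells had 1 or 2, and 29 cells had 7 or more. No cell had none and no cell had all 10. The number of members detected correlated between sisters at r = 0.36 over all divisions, with a mean of 4.197 in high and 4.10 in low daughters. This r was not centred on experiment and plate, and depth was not regressed out, so it includes differences between experiments.

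Within cells, most members varied together weakly. Correlations were computed on log2(CPM + 1) centred on experiment and plate over all cells. The 2 genes of a pair share the library and its depth. They are descriptions of sparse counts with no p. For the 6 members in at least 20% of cells, median Pearson r with all other such genes ran from 0.006 (Pf4) to 0.040 (Itga2b). Positive pairs were not counted over all genes. Over the 15 pairs of these 6 members, the median was 0.14 and 12 pairs were positive. The same pairs were then read across sisters, one gene in a cell and the other in its sister, which do not share a library. Again 12 pairs were positive, and all 15 kept their sign. The pairs described next were chosen after their values were seen, and no grouping of the genes was tested.

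Vwf varied with Selp (r = 0.27 within cells, 0.29 across sisters) and with Itgb3 (0.26 and 0.19). Vwf and Selp were detected together in 1.16 times as many cells as independent detection within plates would give. Vwf varied little with the integrin gene Itga2b (0.05 and 0.07) and not positively with Pf4 (-0.08 and -0.11). The pair of Vwf and Itgb3 was positive in 9 of 9 experiments and that of Vwf and Selp in 8 of 9.

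Itga2b, Gp9 and Gp5, the genes of the integrin alpha chain and of 2 GPIb-IX-V subunits, were positive with each other as well. Itga2b and Gp9 had r = 0.26 within cells, 0.24 across sisters and a positive value in 9 of 9 experiments, and joint detection was 1.19 times that under independence. Itga2b and Gp5 had r = 0.31 and 0.19, and Gp9 and Gp5 0.19 and 0.13. Without the 10 cells highest in Gp5, a choice made after seeing the data, the values were 0.22 for Itga2b with Gp5 and 0.14 for Gp9 with Gp5. Without experiment 69, also a choice made after seeing the data, they were 0.25 and 0.16. The 2 chains of the fibrinogen receptor, Itga2b and Itgb3, had r = 0.21 within cells and 0.23 across sisters.

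The chemokine genes Pf4 and Ppbp, next to each other on chromosome 5, had r = 0.23 within cells, positive in 9 of 9 experiments, and 0.11 across sisters. Of the 64 cells with Ppbp, 56 had Pf4 as well, against 45.1 expected. Pf4 was close to 0 with Itgb3 (-0.01) and Selp (-0.07), and at 0.14 with Itga2b and with Gp9.

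**Figure D3:**
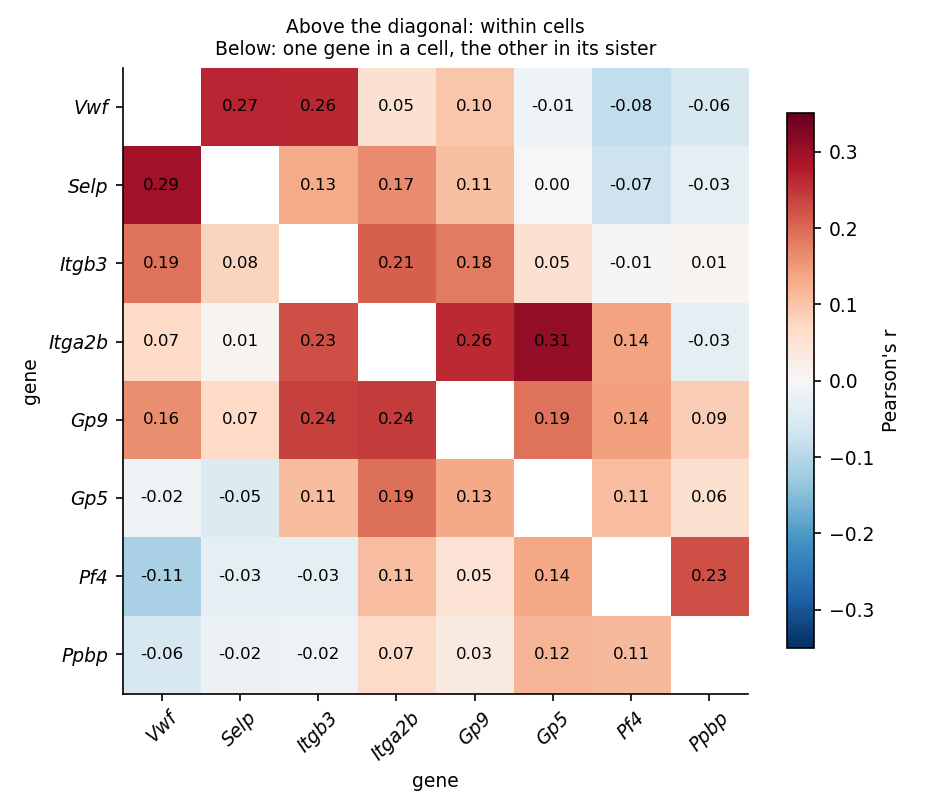
Pearson's r between 8 genes, above the diagonal within cells and below it between one gene in a cell and the other in its sister, on log2(CPM + 1) centred on experiment and plate. Among the higher pairs are Vwf with Selp (0.27 and 0.29), Vwf with Itgb3 (0.26 and 0.19), Itga2b with Gp9 (0.26 and 0.24) and Itga2b with Gp5 (0.31 and 0.19). Vwf with Pf4 is below 0 on both sides.

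Against HSC markers, Itga2b and Vwf had correlations of opposite sign, a difference that was not tested. Itga2b ran against the stem cell genes Procr (r = -0.36 within cells, -0.38 across sisters), Hlf (-0.36 and -0.35) and Ly6a (-0.32 and -0.37), and each was negative in 9 of 9 experiments. Vwf was positive with Procr, at 0.17 and 0.11, and with Ly6a, at 0.16 and 0.09, and its value with Hlf is not reported here. With the mean level of the HSC markers, r was 0.31 for Vwf, 0.24 for Selp, 0.04 for Itgb3, -0.07 for Ppbp, -0.09 for Gp9, -0.15 for Pf4, -0.19 for Gp5 and -0.26 for Itga2b.

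Other measures moved with the same genes. Itga2b had r = 0.24 with the G2/M score, 0.19 with the G1/S score, 0.23 with the number of detected genes and 0.20 with erythroid markers. With cell cycle scores regressed out, Itga2b with Procr was at -0.31 and with Gp9 at 0.24. Vwf had r = 0.26 with the endothelial list, whose part in the values of Vwf was not tested, and 0.11 with the number of detected genes. With depth and the number of detected genes regressed out, Vwf with Selp was at 0.26 and with Itgb3 at 0.25.

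Among transcription factor genes of the lineage, Gata1 was seen in 5.27% of cells and had r = 0.43 with Gp5 and 0.24 with Itga2b within cells, and 0.13 and 0.21 across sisters. Most Gata1 counts came from experiment 69, and without it these values were 0.25 and 0.22 within cells and 0.11 and 0.22 across sisters. Without the 10 cells highest in Gp5, Gata1 with Gp5 was at 0.33. Gata2 had r = 0.25 with Itga2b, with Itgb3 and with Gp5. Runx1 had r = 0.23 with Vwf, 0.22 with Selp and 0.21 with Itgb3, and -0.13 with Pf4.

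For each of the 6 members found in at least 20% of cells, the 5 genes most like it across all cells were drawn from 11744 others. Vwf was most like Clu, the gene of the secreted chaperone clusterin (r = 0.54, and 0.52 across sisters), then Tm4sf1 (0.37), Nupr1 (0.35), Rhoj (0.30) and Evc2 (0.30). Its median r over all genes was 0.01 and its 99th percentile 0.19. Selp shared Clu (0.33) and Tm4sf1 (0.29) at the top of its list, followed by Vwf (0.27), B3galt1 (0.27) and Gda (0.26).

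Itga2b was most like Fgf3 (0.38), Col18a1 (0.37), the tubulin gene Tuba8 (0.37), Slc22a3 (0.33) and Zbtb16 (0.32), with a 99th percentile of 0.22. Gp9 also had Fgf3 first (0.29), then Exoc3l4 (0.27), Itga2b (0.26), Zfp808 (0.24) and the calcium pump gene Atp2a3 (0.24). Itgb3 was most like Aldh1a1 (0.37), the tetraspanin gene Cd9 (0.31), the thrombin receptor gene F2r (0.31), Gm10419 (0.28) and the formin gene Diaph1 (0.28). Pf4 had the weakest list, with Cd244a, a receptor of the SLAM family (0.28), Nkg7 (0.24), Neurl3 (0.23), Dnajc6 (0.22) and Slc39a4 (0.21), and a 99th percentile of 0.14.

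Sisters resembled each other in these genes. The intraclass correlation (ICC) weighs how much divisions differ from one another against how much the 2 sisters of a division differ, after centring on experiment and plate, and is 1 when sisters are equal and 0 when they differ as much as unrelated cells. It was tested with an F test over divisions, adjusted by the Benjamini-Hochberg method over the 11745 genes found in at least 20% of cells, at a threshold of 0.05. Of the 10 members 6 passed that filter, and all 6 were called. The share called among all genes was 26.4%, and the median ICC was 0.33 for the 6 members and 0.09 for all genes.

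Vwf had the highest value of the members, 0.58 (95% interval 0.48 to 0.67), at the 98.6th percentile of all genes. In single experiments it ran from -0.05 over a median of 0.55 to 0.79. Experiment 72 was the only one below 0, and without it the ICC was 0.61. In 39 divisions neither sister had Vwf, in 61 only 1 did and in the others both did. The sister of a cell with Vwf had it in 77.2% of cases, against 64.02% among unrelated cells of that experiment and plate, a difference seen in 8 of 9 experiments.

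Itga2b followed at 0.39 (0.27 to 0.50) and was positive in 9 of 9 experiments, with values from 0.02 to 0.62. Both sisters had it in 82 divisions, 1 sister in 79 and neither in 42. The share of positive sisters was 67.5%, against 57.9% in unrelated cells. Its integrin partner Itgb3 had the lowest ICC of the 6, 0.23 (0.10 to 0.36), also positive in 9 of 9 experiments.

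Pf4 stood at 0.37 (0.24 to 0.48), with single experiments from -0.25 in experiment 72 to 0.61, and at 0.39 without that experiment. Its presence or absence was shared little, since 74.2% of the sisters of positive cells were positive against 71.4% of unrelated cells. Selp at 0.29 (0.16 to 0.41) and Gp9 at 0.29 (0.15 to 0.41) were positive in 7 and 8 of 9 experiments. For Gp9, 64.2% of sisters of positive cells were positive against 51.6% of unrelated cells, and for Selp 47.7% against 39.4%. The interval of Vwf lay above those of Pf4, Selp, Gp9 and Itgb3 and overlapped that of Itga2b, and the differences between genes were not tested.

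Gp5 and Ppbp were too rare for that filter. In a fit over 15609 genes found in at least 5% of cells, of which 21.1% were called, Gp5 had an ICC of 0.22 (F test, adjusted p = 0.008) and Ppbp 0.12 (adjusted p = 0.145). Both sisters had Gp5 in 8 divisions, and 28.6% of sisters of positive cells were positive against 12.8% of unrelated cells. Both sisters had Ppbp in 4 divisions. Treml1 was never seen in both sisters, with 14 divisions in which 1 had it, too few to read a difference from.

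Wells were numbered down each plate column. Consecutive numbers count as adjacent, also from the foot of a column to the top of the next. By this order, sisters were in adjacent wells in all but 2 divisions. Over unrelated cells in adjacent wells, 9 fewer pairs than there are divisions, r ran from -0.08 for Vwf to 0.07 for Pf4, whereas between sisters it ran from 0.21 for Itgb3 to 0.57 for Vwf. With cell cycle scores regressed out, the 6 ICCs ran from 0.24 for Itgb3 to 0.58 for Vwf, and with cells thinned to 200000 counts from 0.22 to 0.57. All 6 were called in both, at backgrounds of 12.1% and 21.4%. Coded as detected or not, Vwf, Itga2b and Gp9 were called (background 12.7%) and Pf4, Selp and Itgb3 were not. The calls rest on divisions. Taking the 9 experiments as replicates in an exact two-sided sign-flip permutation test, the unadjusted p ran from 0.0039, the smallest possible, to 0.027, and 0 of 11745 genes passed after adjustment, with adjusted p from 0.050 for Itga2b and Itgb3 to 0.146 for Selp. In run 5 alone, with 67 divisions, Vwf, Itga2b and Gp9 were called (background 10.2%) and Pf4, Selp and Itgb3 were not, at ICCs of 0.30, 0.22 and 0.22.

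**Figure D4:**
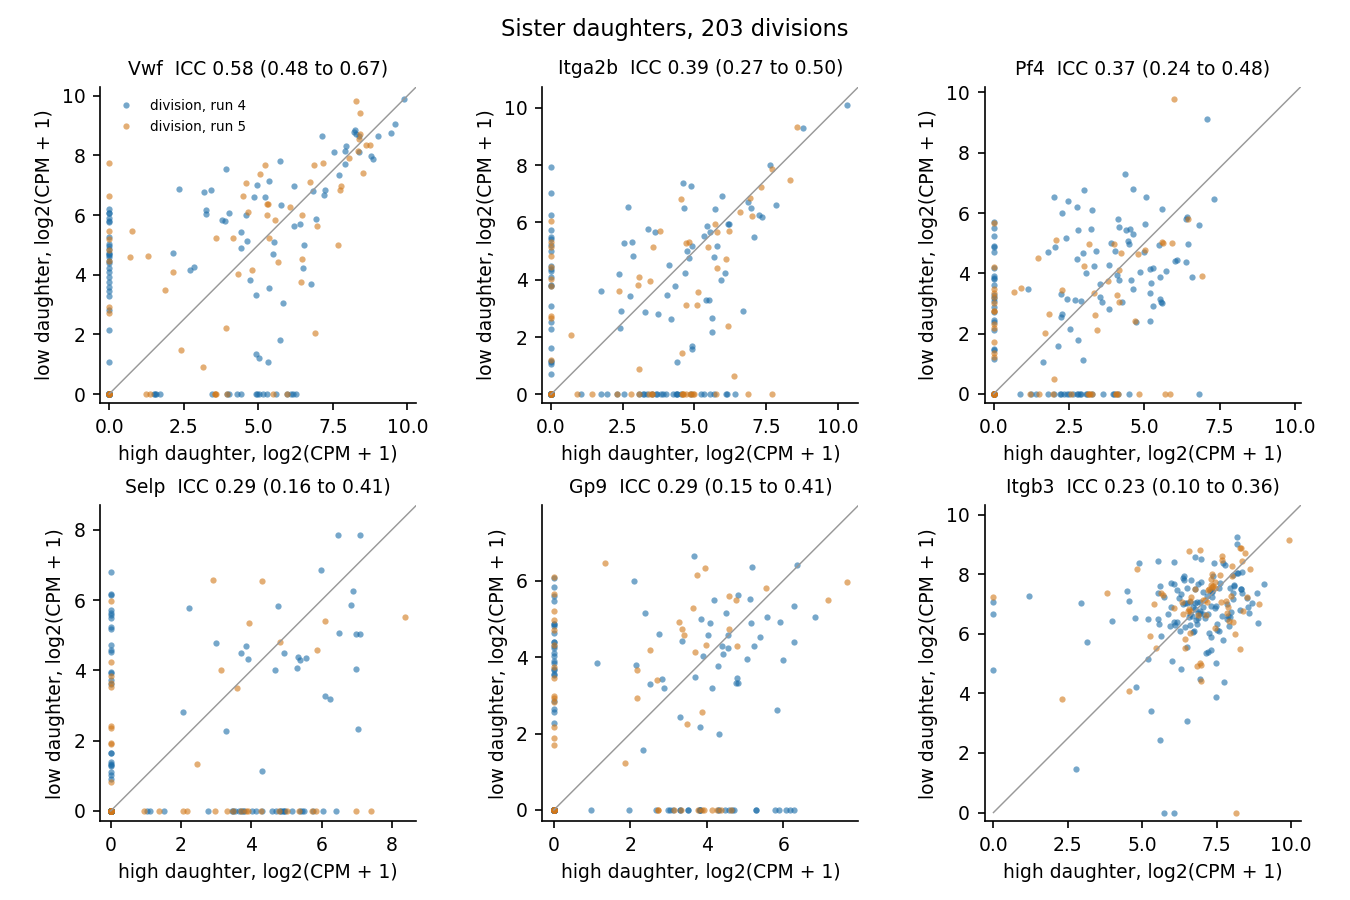
Level of 6 genes in the high daughter (x axis) and the low daughter (y axis) of each division, on the log2(CPM + 1) scale, with the line of equality and the ICC with its 95% interval. Vwf (0.58) lies along the line at high levels, Pf4 (0.37) and Gp9 (0.29) scatter more, and cells without a count lie on the axes.

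Beyond the members, 78 genes of platelet biology were grouped in 5 lists, of which 58 passed the 20% filter and 41 were called between sisters. The called genes were 7 of 11 adhesion and activation receptors, 8 of 10 genes of granule cargo and secretion, 9 of 9 of the cytoskeleton, 9 of 16 of signalling and 8 of 12 transcription factors. The median ICC was 0.20 over the 58, against 0.09 for all genes and a background of 26.4% called. That background was not matched for level or detection, and 39 of the 78 genes had a count in at least 90% of cells. Whether the difference goes with level was not tested. With cell cycle scores regressed out 30 were called (background 12.1%), in run 5 alone 16 (10.2%), and with experiments as replicates 0 (0%). Coded as detected or not, 10 of the 40 genes then tested were called (12.7%).

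The granule genes Clu and Plek had the highest values of the wider lists. Clu had an ICC of 0.62 (0.52 to 0.70), Plek, the gene of the kinase substrate pleckstrin, 0.55 (0.44 to 0.64), Tgfb1 0.40 and the protease inhibitor gene Serpine2 0.38. Among receptors F2r had 0.45 (0.33 to 0.55), Cd9 0.44 (0.32 to 0.55), the ATP-gated channel gene P2rx1 0.25 and the adhesion gene Esam 0.23. Clu, Plek, Tgfb1, F2r and Cd9 were positive in 9 of 9 experiments.

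Among cytoskeletal genes Tuba8 led with 0.42 (0.29 to 0.52), followed by the tropomyosin gene Tpm4 at 0.31, Parvb at 0.29 and the talin gene Tln1 at 0.27. Signalling genes were lower, with the adaptor gene Lat at 0.27, Ptgs1, which encodes cyclooxygenase 1, at 0.24, the thromboxane synthase gene Tbxas1 at 0.23 and Rgs10 at 0.22. The transcription factor genes Meis1, Gata2, Runx1 and Etv6 had 0.34, 0.27, 0.26 and 0.23. P2ry12, F2rl2, Cavin2 and Zfpm1 were listed at 0 in every cell.

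The last comparison asked whether the daughter with more lysosomes differs from its sister in these genes. Summed counts of high and of low daughters in each experiment were compared in edgeR with the experiment as a block, Benjamini-Hochberg adjustment and a threshold of 0.05. Of the 10 members 9 passed the filter on low counts, and 0 were called. The background was also 0, with 0 of 15854 genes called (0%), while 658 (4.15%) had an unadjusted p under 0.05, among them 1 member. DESeq2 called 5 of 14072 genes (0.0355%), none of them a member. Over the 9 members the median log2 difference, high minus low, was 0.05, against 0.00 over all genes, and 5 were above 0.

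Vwf, at 29.1 to 133.3 CPM in high daughters (median 70.9) and 46.6 to 156.6 CPM in low daughters (median 65.6), was the member with an unadjusted p under 0.05. Its log2 difference was -0.28 ± 0.13 (SE; 95% interval -0.55 to -0.01; p = 0.045, adjusted p = 0.999, edgeR), and high daughters were lower in 6 of 9 experiments. The 2 groups overlapped throughout.

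The integrin chains differed little. Itgb3 ran from 122.4 to 224.5 CPM in high (median 140.1) and from 125.2 to 202.02 CPM in low daughters (median 139.98). Its log2 difference of 0.05 ± 0.06 had an interval from -0.08 to 0.18. Itga2b had a median of 35.7 CPM in high daughters, one of 26.1 CPM in low, and a difference of 0.19 ± 0.17 (-0.17 to 0.56). It was higher in high daughters in 4 of 9 experiments, with means of 47.1 CPM in high and 48.8 CPM in low, and without experiment 68 the difference was 0.06.

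The granule genes were measured less precisely. Pf4, with medians of 14.9 and 15.7 CPM, had a difference of -0.32 ± 0.27 (-0.91 to 0.27) and was higher in high daughters in 2 of 9 experiments, with values of -0.15 without experiment 73 and -0.52 without experiment 72. Selp, with medians of 13.6 and 9.92 CPM, had 0.25 ± 0.34 (-0.47 to 0.98), with values of 0.03 without experiment 68 and 0.46 without experiment 72. Ppbp had 0.85 ± 0.56 (-0.36 to 2.07) and was higher in 6 of 9 experiments. It stood at 0.08 in run 4 alone and at 2.11 in run 5 alone (edgeR interaction of label and run 2.002 ± 1.038, unadjusted p = 0.077, adjusted p = 1). Treml1 rested on 27 counts in high and 44 in low daughters and had -1.22 ± 1.56, with -0.49 without experiment 68 and -2.04 without experiment 73.

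Gp9, with medians of 12.2 and 13.1 CPM, had -0.13 ± 0.24 (-0.64 to 0.38). Its difference averaged 0.29 over the experiments of run 4 and -0.67 over those of run 5, and the edgeR interaction of label and run was -0.98 ± 0.40 (unadjusted p = 0.031, adjusted p = 1). Without experiment 73 the log2 difference of Gp9 was 0.04. Gp5 had 0.54 ± 0.50 (-0.53 to 1.61) and was higher in high daughters in 4 of 9 experiments, with means of 7.56 CPM in high and 8.25 CPM in low. Its difference was 0.27 without experiment 68, 0.01 in run 4 alone and 1.42 in run 5 alone. Detection was not tested between high and low daughters. Vwf had a count in 64.04% of high and 67.5% of low daughters, Itga2b in 63.5% and 56.2%, and Gp9 in 52.2% of each.

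**Figure D5:**
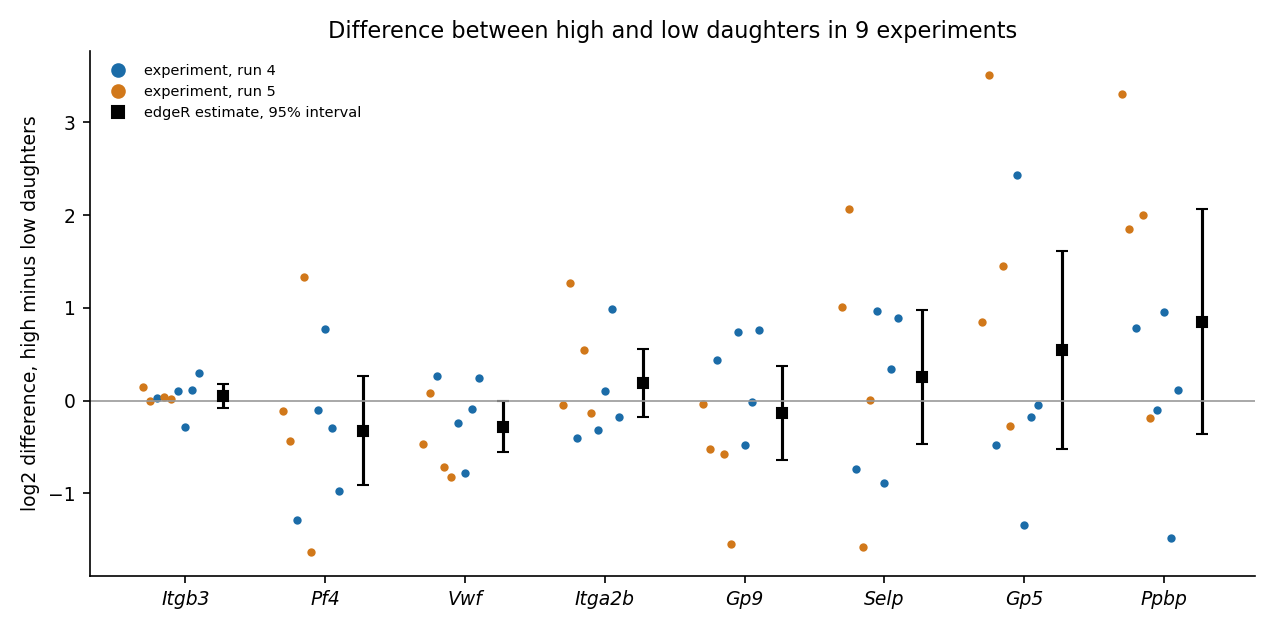
Log2 difference between high and low daughters for 8 genes, with a point for each of 9 experiments (summed counts, log2 CPM with a prior count) and a square for the edgeR estimate with its 95% interval. Itgb3 is the tightest at 0.05, Vwf lies at -0.28, and the points of each gene fall on both sides of 0.

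In the 5 wider lists, 70 of 78 genes were tested and 0 were called by edgeR, and 8 had an unadjusted p under 0.05, against 4.15% of all genes tested. Of these 8, 5 were among the 13 transcription factor genes tested. The median log2 difference was -0.02. The smallest p was that of Nbeal2, a gene needed to form alpha granules, at 0.34 (0.13 to 0.55; p = 0.0039, adjusted p = 0.999, edgeR), higher in high daughters in 8 of 9 experiments. In the same list Serpine2 stood at -0.75 (-1.46 to -0.04), higher in 2 of 9. The adhesion gene Jam3 stood at 0.53 (-0.01 to 1.08). The transcription factor gene Mafg stood at -0.15 (-0.27 to -0.04), higher in 0 of 9 experiments. Tuba8 and Fermt3 of the cytoskeleton list and Fyb and Prkg1 of the signalling list stood at -0.19, -0.04, -0.16 and -0.12, with intervals that include 0.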

How the data were processed

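The values are the read counts per gene deposited by the authors, raw and not normalized, made with featureCounts of Subread 1.5.0 per the submitters' processing notes. For the aligner and build, the sources used here give no name, and all gene identifiers match GENCODE M21. Labels (experiment, plate, well, high or low) come from deposited metadata tables, whose columns hold no other measurement. Count columns of no listed sample (171) were left unused, and 92 spike-ins were left out of totals. All 474 cells, of which 406 form 203 divisions, had at least 50000 counts and 1000 detected genes, and no doublet caller was run on hand-picked cells.

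Here, edgeR 4.0.16, limma 3.58.1 and DESeq2 1.42.0 (R 4.3.3) and Python 3.11.15 with scipy 1.17.1 were used. Counts were summed per experiment and label (TMM, filterByExpr, quasi-likelihood F test). The experiment was the block because it is the replicate, and the sums do not keep the pairing of sisters within divisions. On simulated data for that comparison, with 15854 genes, edgeR recovered 88% of 100 genes changed 2-fold. The ICC test recovered 99% of 200 genes among 11745, whose median ICC was 0.39. Both simulations drew the changed genes from those with more counts, and neither included a difference between experiments. The shares are thus not the power for rarer members such as Ppbp and Treml1 or for smaller effects. The members and lists were chosen with earlier results of these data known. Named genes were the members, for each member in at least 20% of cells the 5 most correlated genes, and of each wider list the 4 highest ICCs and the 2 smallest p; some of these are not reported here. Reads carry no molecular identifiers.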

Additional observations from a re-analysis of the deposited data

Results flagged for a closer look

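Over the 9 experiments, 36 measures of the members were searched for 1 experiment far from the others (Dixon's 95% critical value of 0.493). Chance meets that value in about 1 in 20 groups of normally distributed values. That rate does not carry over to sparse counts or to measures that share counts, as those of the Gp1bb row do. The value was met 6 times. Experiment 69 was highest in mean level for Itga2b (142.5 CPM, next 39.2), Gp5 (31.7 CPM, next 5.64) and the Gp1bb row (0.104 CPM, next 0.036), and in the share of cells with a Gp1bb count (9.38%, 3 of 32 cells, next 2.08%). In 1 of its divisions the sisters had Itga2b at 1274 and 1087 CPM and Gp5 at 323.05 and 227.7 CPM. Both of these sisters also had a Gp1bb count. The values of experiment 69 thus rest in large part on few cells. Experiment 72 was lowest in the ICC of Vwf (-0.051, next 0.450) and of Pf4 (-0.246, next 0.211), on 11 divisions. The interaction of label and run passed for none of the 9 members tested (edgeR, adjusted p = 1 for each, with 1 unadjusted p under 0.05).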

How the results depend on the processing

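Of the members 6 were called between sisters, 7 when genes in at least 5% of cells were tested, and 6 under every other alternative apart from the next 3. Coding each gene as detected or not called 3 members and 10 of the 40 wider genes then tested (background 12.7%). Run 5 alone called 3 members and 16 wider genes (10.2%). The sign-flip test over experiments called 0 and 0, with 0 of 11745 genes called. The test over experiments has fewer replicates and run 5 fewer divisions. Detected or not, Itgb3 had an ICC of -0.0091. Leaving out each experiment in turn gave 6 members throughout and 33 to 41 wider genes. Median detection over the 10 members was 46.7%, and 38.6% when 5 counts were asked for. The median correlation of 15 pairs lay between 0.12 and 0.17 over its alternatives.

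Between high and low daughters, 0 members were called under every setting tried. Estimates that changed sign were Itga2b (-0.045) and Gp5 (-0.11) with no replicate block, Gp9 in run 4 alone (0.30), Gp9 when experiments were left out in turn (-0.25 to 0.039, above 0 without experiment 73) and Itgb3 in limma over divisions (-0.0012). The cause was not tested. With no replicate block, the count of calls was 0 for members and for wider genes, as with the block. Thinning to 200000 counts lowered the share of cells with Pf4 from 69.4% to 57.3% and with Gp5 from 14.3% to 11.9%.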

Other observations

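The 10 cells with the most Gp5 counts, chosen after their values were seen, held 2 pairs of sisters. In a division of experiment 69, Gp5 was at 323.05 CPM in the high and 227.7 CPM in the low daughter, Itga2b at 1274 and 1087 CPM, Gfi1b, a transcription factor gene, at 266.6 and 439.3 CPM, and Procr had no count in either. Gata1 was less equal there, at 224.8 and 22.4 CPM. In a division of experiment 73, Gp5 was at 121.8 CPM in the low and 110.1 CPM in the high daughter and Itga2b at 648.5 and 384.7 CPM, again with no Procr count. These sisters differed in Pf4, with 945 and 60 counts. Of the other 6 cells, 5 had a sister without a Gp5 count. For 1, at 82.9 CPM, the sister had 10 Gp5 counts among 125467 in total, which is 79.7 CPM. Procr was not absent from all 10 cells, with 127.7 CPM in a cell of experiment 72 that had no Itga2b count. A cell of experiment 75 had Procr at 25.7 CPM and Itga2b at 120.9 CPM. Experiment 69 supplied 4 of the 10 cells.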
